A study of Arabidopsis thaliana with 18 samples.

Results

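The question addressed here was whether loss of AtBro1 alters the response of Arabidopsis seedling transcripts to 2 h of abscisic acid (ABA). For every gene, the log2 change from mock to ABA in WT was subtracted from the log2 change in bro1-1. This difference of the responses, the interaction of genotype and ABA, is negative where ABA took a transcript lower in bro1-1 than the WT response would have done, and positive where it took it higher. It used 12 of the 18 libraries, 3 in each of 4 groups, and 20330 of the 32833 genes listed in every library had enough counts to be tested. WT was the Columbia ecotype (Col-0), and bro1-1 was a single homozygous T-DNA line in the same background, with the insertion in the sixth intron of AtBro1 (AT1G73390). Seedlings were 2 weeks old, were grown on diluted Murashige and Skoog medium with sucrose, and were either mock treated or given 100 µM ABA for 2 h. All 4 groups shared the age, the medium and the ecotype. With 1 line, the insertion and any other difference between that line and WT cannot be told apart. The labels give no time of harvest for the mock seedlings, so ABA and the 2 h of treatment cannot be told apart either.

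ABA is sensed by soluble PYR/PYL receptors. A receptor with bound ABA blocks the clade A PP2C phosphatases, which frees SnRK2 kinases to phosphorylate the ABF and ABI5 transcription factors and so switches on genes of water deficit and seed maturation. BRO1-domain proteins are known from yeast as partners of the ESCRT machinery, which sorts ubiquitinated membrane proteins into vesicles on their way to the vacuole, and the Arabidopsis member ALIX binds ABA receptors on that route.

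The 12 libraries held 15568034 to 17853178 expected counts, and replicates correlated at 0.932 to 0.982 on the log2 CPM scale, with the lowest values among WT mock libraries. WT mock 2 and bro1-1 mock 3 stood apart from the other mock libraries in the same way. LHCB2.1, a light-harvesting protein of photosystem II, lay at 133 and 129 CPM in them and at 1011 to 1579 CPM in the other 4 mock libraries, and ABA1, a zeaxanthin epoxidase of ABA synthesis, at 55.8 and 43.4 CPM against 220 to 286 CPM. The summed level of 5 embryo and seed markers was 725 CPM in bro1-1 mock 3, 28.1 CPM in bro1-1 ABA 1, 8.29 CPM in bro1-1 ABA 3 and at most 1.14 CPM in the other 9 libraries. Root markers were all detected, with summed levels of 38.1 to 55.9 CPM in WT mock, 31.1 to 33.7 in WT ABA, 27.2 to 44.5 in bro1-1 mock and 35.4 to 56.5 in bro1-1 ABA. The interaction was positive for 7 of the 7 root markers tested (median 0.94), where 52.2% of all genes lay above 0. EXP7 at 2.57, named because of its value, was the 1 marker with an unadjusted p under 0.05. Over all genes, 2.89% had such a p in that direction. Without bro1-1 ABA 1 the median was 0.38, with 5 markers above 0 and 2 below, and the 1 marker at such a p was negative. All 3 flower markers were below the count filter. What part these library differences have in the results below was not tested beyond leaving the libraries out.

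AtBro1 itself was examined first, as a check of the genotype. Its level was 21.2, 12.4 and 13.5 CPM in the WT mock libraries and 507, 534 and 412 CPM in WT ABA 2 h. In bro1-1 it was 12.8, 10.6 and 11.2 CPM at mock and 198, 180 and 181 CPM after ABA. The mock groups overlapped, whereas every bro1-1 library after ABA lay below every WT library. ABA raised AtBro1 by 4.94 on the log2 scale in WT and by 4.02 in bro1-1, and the interaction was -0.92 ± 0.28 (SE, 3 libraries per group), with an adjusted p of 0.909 in edgeR's quasi-likelihood test. Reads were still counted for the gene in bro1-1 in all 6 libraries, and these gene-level counts do not say whether they come from before or after the insertion.

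**Figure D1:**
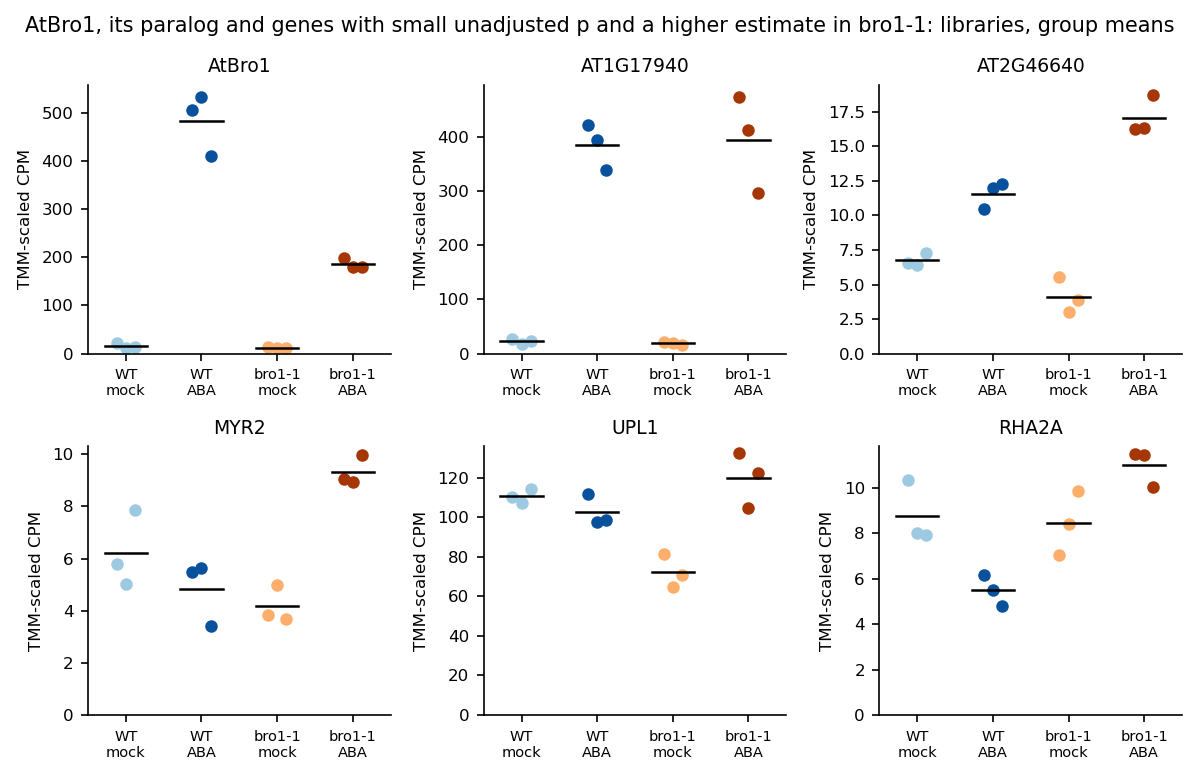
CPM in each of the 12 libraries, on a linear axis from 0, for AtBro1, its paralog AT1G17940 and 4 genes with a positive interaction (AT2G46640, MYR2, UPL1 and RHA2A). Points are libraries and bars are group means. After ABA, AtBro1 lay at 180 to 198 CPM in bro1-1 and 412 to 534 CPM in WT, while AT1G17940 overlapped between the genotypes.

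The paralog AT1G17940, which also encodes a BRO1-like domain protein, was at 26.3, 18.1 and 23.1 CPM in WT mock and 423, 395 and 339 CPM in WT ABA. In bro1-1 it was at 22.1, 20.0 and 15.6 CPM at mock and 475, 414 and 298 CPM after ABA. The genotypes overlapped at both points, and the interaction was 0.26 ± 0.30, with a 95% interval of -0.40 to 0.92. Of the 13 BRO1-domain and ESCRT genes, all tested, AtBro1 alone had an unadjusted p under 0.05, and the median interaction was 0.00 against 0.02 over all genes. The highest value among them belonged to LIP5, a cofactor of the ESCRT disassembly ATPase SKD1, at 0.52 ± 0.25, and SKD1 itself was at 0.07 ± 0.17. ALIX was at 0.16 ± 0.21. AtBro1 lies on the minus strand of chromosome 1 in TAIR10.1 (chr1:27590810-27595752), and within 50 kb of it 33 genes are annotated, of which 29 were tested. Among these neighbours 1 had an unadjusted p under 0.05, AT1G73450 at 0.54 ± 0.24, and their median interaction was 0.10. The 250 bases before the start of AtBro1 are shown because ABA raised this gene in both genotypes. Capitals mark ACGTG, the core of the ABA response element, on either strand.
AtBro1, chr1:27595753-27596002, minus strand: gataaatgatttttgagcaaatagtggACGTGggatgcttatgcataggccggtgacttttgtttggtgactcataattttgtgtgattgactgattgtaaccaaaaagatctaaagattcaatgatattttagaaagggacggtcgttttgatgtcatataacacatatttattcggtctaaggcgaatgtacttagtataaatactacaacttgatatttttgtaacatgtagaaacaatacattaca
This window held 1 match, 223 bases before the annotated start, and 24.2% of the promoters of tested genes hold at least 1.

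Over all genes, no interaction passed the test. With edgeR, 0 of 20330 genes (0%) passed an adjusted p of 0.05 together with an absolute log2 difference of 1, and the smallest adjusted p was 0.338, shared by ESE3, AT4G32340, AT1G23390 and RAV1. An unadjusted p under 0.05 was found for 588 genes (2.89%) with a positive and 453 (2.23%) with a negative interaction, and an unadjusted p under 0.001 for 17, of which 14 were negative. With DESeq2, on the same counts and genes, 15 genes (0.0738%) passed both thresholds, 13 lower and 2 higher. Each group had 3 libraries, and what set the precision was not tested. The median standard error was 0.34 over all genes and 0.26 over the 12698 genes of at least 10 CPM. For 9936 genes (48.9%) the whole 95% interval lay between -1 and 1, so that a 2-fold difference of the responses lay outside it. For the remaining genes a difference of that size was not excluded by these libraries. Among the 1041 genes with an unadjusted p under 0.05, the genotypes differed more after ABA than at mock in 735, or 70.6%, where the share over all genes was 56.8%. The responses had opposite signs in 466 of these genes, the same sign and a larger size in bro1-1 in 372, and the same sign and a smaller size in 203. A choice by interaction p favours opposite signs, and the shares of this split over all genes were not counted. Whatever the sign, the response was larger in bro1-1 in 11451 of all 20330 genes, so the split is a description only.

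**Figure D2:**
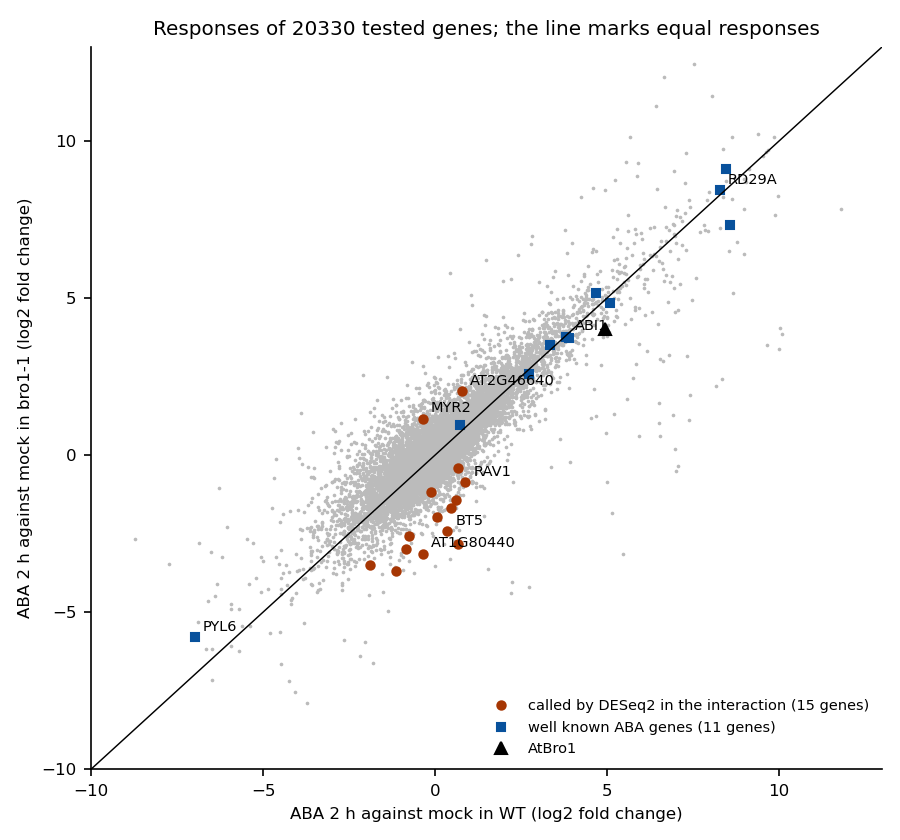
Log2 response to 2 h of ABA in bro1-1 (vertical axis) against that in WT (horizontal axis) for the genes tested, with the leading genes marked. Genes on the diagonal had equal estimates in both genotypes, and the vertical distance from it is the interaction, which no gene had at an adjusted p under 0.05 in edgeR.

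The ABA responses themselves reached many genes in both genotypes, and the difference in their number was not tested. In WT, 2360 genes (11.6%) were called higher and 1517 (7.46%) lower after ABA, and in bro1-1 2769 (13.6%) and 1593 (7.84%). Averaged over the genotypes, ABA raised 2784 genes and lowered 1781. The raised genes had a median response of 1.79 in WT and 1.97 in bro1-1, and their median interaction was 0.20 (quartiles -0.13 and 0.53), against 0.02 (quartiles -0.21 and 0.30) over all genes. Of the raised genes, 1832 lay above 0 and 952 below, and 98 and 42 of these had an unadjusted p under 0.05. For the lowered genes the median responses were -1.54 in WT and -1.47 in bro1-1, and the median interaction was 0.03, with 913 above 0 and 868 below. Computed from the median of each library, the interaction of the raised genes was 0.14 ± 0.23 (SE, 3 libraries per group) and that of the lowered genes -0.02 ± 0.21, both smaller than the spread between libraries. The median of the raised genes was -0.03 without WT mock 1, 0.09 without bro1-1 ABA 1 and 0.31 without bro1-1 ABA 3, and that of the lowered genes ranged from -0.16 without bro1-1 ABA 3 to 0.15 without WT ABA 3.

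In the negative direction, the 10 genes of smallest edgeR p and the 13 called lower by DESeq2 make 15 genes. These were selected on this contrast, so their values are a description. The shares of all genes without overlap in the single comparisons below were not counted. In 14 of the 15, every bro1-1 library after ABA lay below every WT library after ABA, with MIOX4 the exception. At mock the genotypes overlapped in 10, and bro1-1 lay above WT in the other 5. From mock to ABA, the bro1-1 libraries lay lower after ABA without overlap in 14 of the 15, whereas the WT libraries lay higher after ABA in 5, lower in 4 and overlapped in 6. Whole seedlings were sampled, so that fewer cells expressing a gene and less transcript per cell cannot be told apart.

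RAV1 encodes an AP2/B3 transcription factor that restrains growth. Its level was 71.6, 93.6 and 92.0 CPM in WT mock and 126, 158 and 188 CPM in WT ABA. The bro1-1 seedlings had 102, 106 and 78.8 CPM at mock and 58.4, 58.3 and 40.0 CPM after ABA. The groups overlapped at mock, and from there WT moved up and bro1-1 down, with no overlap in either genotype. The log2 response was 0.88 in WT and -0.87 in bro1-1, an interaction of -1.75 ± 0.29 (95% interval -2.38 to -1.12, edgeR adjusted p = 0.338, DESeq2 adjusted p = 0.000108).

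ESE3, a factor of the AP2/ERF family, was at 11.4, 10.4 and 8.15 CPM in WT mock and 5.32, 5.56 and 7.04 CPM in WT ABA. The bro1-1 values were 10.3, 11.6 and 10.6 CPM at mock and 2.01, 1.61 and 1.76 CPM after ABA. Both genotypes were lower after ABA, bro1-1 by more, and its 3 libraries after ABA were the lowest of the 12. The interaction was -1.84 ± 0.27, with the smallest unadjusted p of all genes tested, 2.29e-05 in edgeR. AT5G61590, of the same family, lay at 164 to 248 CPM in WT mock and 182 to 280 CPM in bro1-1 mock. After ABA it was at 40.5, 57.2 and 79.3 CPM in WT and 23.9, 18.5 and 18.9 CPM in bro1-1, again lower in both genotypes and without overlap between them, with an interaction of -1.62 ± 0.37. ERF2, an AP2/ERF activator of jasmonate-responsive defence genes, was at 9.53, 13.9 and 10.3 CPM in WT mock, 20.2, 15.6 and 10.9 in WT ABA, 23.0, 12.9 and 25.4 in bro1-1 mock and 4.28, 7.38 and 7.57 in bro1-1 ABA. The WT groups overlapped and the bro1-1 groups did not, and the interaction was -2.14 ± 0.45.

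BBX14, a B-box factor with a CCT domain, was at 203, 170 and 220 CPM in WT mock and 77.7, 88.0 and 168 CPM in WT ABA. In bro1-1 it was at 229, 320 and 175 CPM at mock and 28.1, 42.5 and 20.5 CPM after ABA. It was lower after ABA in both genotypes, and the bro1-1 libraries after ABA lay below all others, with an interaction of -2.16 ± 0.48. HSFA8, a heat shock factor, was at 10.6, 14.4 and 13.4 CPM in WT mock, 20.8, 18.7 and 21.6 in WT ABA, 17.9, 17.4 and 15.3 in bro1-1 mock and 14.7, 12.3 and 11.1 in bro1-1 ABA. Here the genotypes did not overlap at mock either, with bro1-1 above WT before ABA and below it after, and the interaction was -1.08 ± 0.23. AT1G32360, a CCCH zinc finger protein, followed the same order with a smaller interaction of -0.77 ± 0.17.

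AT1G23390 encodes an F-box protein with kelch repeats, a type that selects targets for ubiquitin ligases. It was at 149, 179 and 158 CPM in WT mock and 187, 253 and 305 CPM in WT ABA. Its levels in bro1-1 were 213, 288 and 152 CPM at mock and 82.3, 71.5 and 88.5 CPM after ABA. As for RAV1, WT moved up and bro1-1 down without overlap, and the interaction was -2.04 ± 0.34 (95% interval -2.78 to -1.31, edgeR adjusted p = 0.338). AT1G80440, another kelch-repeat protein, spread from 115 to 283 CPM in WT mock and from 56.1 to 272 CPM in WT ABA, while bro1-1 lay at 205, 237 and 181 CPM at mock and 22.4, 24.8 and 23.6 CPM after ABA. Its WT groups overlapped over nearly their whole range, and the interaction was -2.79 ± 0.66. BT5, a BTB and TAZ domain protein, was at 49.3, 73.4 and 51.4 CPM in WT mock, 35.4, 72.8 and 113 in WT ABA, 80.9, 117 and 69.6 in bro1-1 mock and 22.3, 13.6 and 14.5 in bro1-1 ABA. It too overlapped in WT and separated in bro1-1, with an interaction of -2.76 ± 0.53.

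MIOX4, a myo-inositol oxygenase, was low throughout, at 0.570, 1.52 and 0.918 CPM in WT mock and 0.598, 2.3 and 1.94 CPM in WT ABA. The bro1-1 libraries had 5.39, 5.76 and 3.91 CPM at mock and 0.881, 0.939 and 0.303 CPM after ABA. For this gene the genotypes were separate at mock, with bro1-1 higher, and overlapped after ABA, and the interaction was -3.50 ± 0.77. ACHT5, an atypical thioredoxin, was at 24.7, 39.6 and 27.7 CPM in WT mock, 5.44, 13.3 and 22.8 in WT ABA, 31.0, 49.6 and 38.6 in bro1-1 mock and 3.84, 2.28 and 3.15 in bro1-1 ABA. It was lower after ABA in both genotypes, and the bro1-1 libraries after ABA lay below the lowest WT library, with an interaction of -2.53 ± 0.59. AT5G47070, a protein kinase, was the one member that ABA took up in both genotypes, from 14.5 to 16.2 CPM to 38.4 to 47.0 CPM in WT and from 18.2 to 20.8 CPM to 25.8 to 29.9 CPM in bro1-1, with an interaction of -0.89 ± 0.18. AT4G32340 was at 87.6 to 107 CPM in WT mock, 84.1 to 96.2 in WT ABA, 136 to 148 in bro1-1 mock and 60.2 to 67.4 in bro1-1 ABA, and had the smallest DESeq2 adjusted p, 7.27e-07, at an interaction of -1.04 ± 0.17. AT2G25200 had an interaction of -2.04 ± 0.45.

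**Figure D3:**
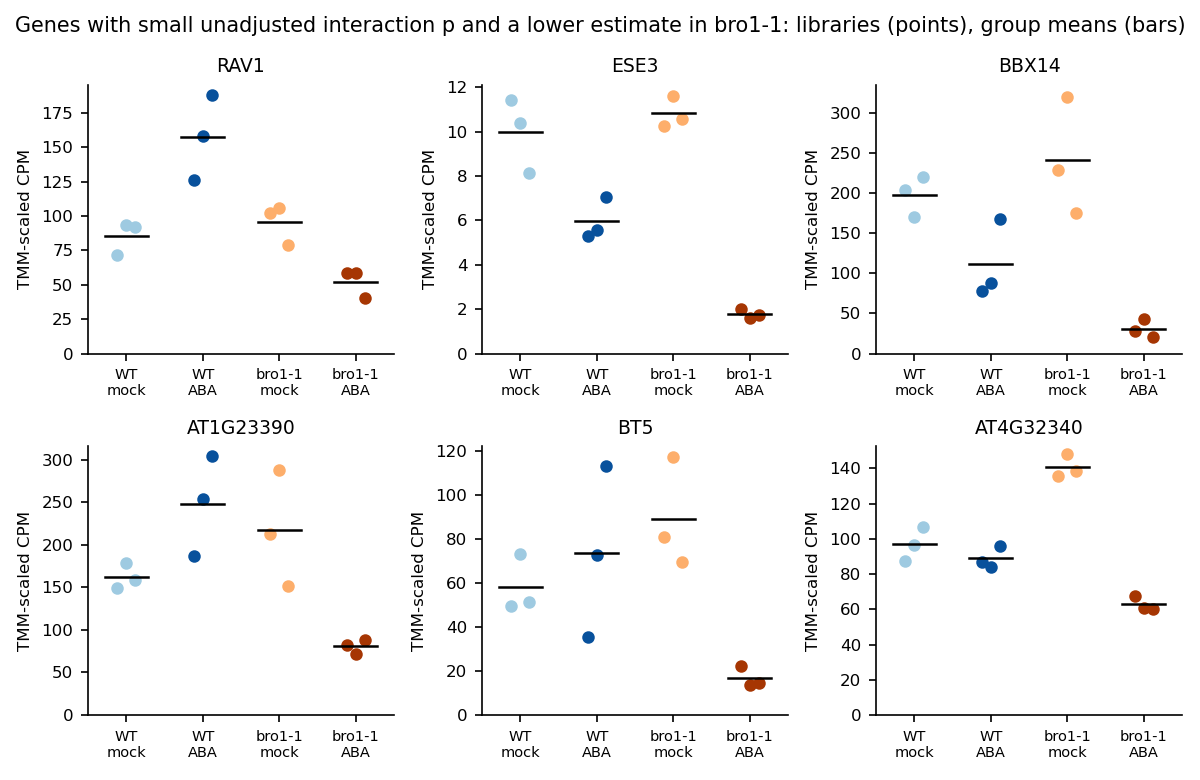
CPM in each of the 12 libraries, on a linear axis from 0, for 6 of the genes with a negative interaction (RAV1, ESE3, BBX14, AT1G23390, BT5 and AT4G32340). Points are libraries and bars are group means. In all 6 panels the bro1-1 ABA libraries lie below the WT ABA libraries, while the mock groups overlap except for AT4G32340.

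Stretches of 250 bases before the annotated start are shown for 5 of these 15 genes, the 4 that hold both TATCCA and GATAAG, and RAV1, which holds none of the motifs searched (TAIR10.1, 5′ to 3′ on the strand of the gene). Capitals mark 3 motifs on either strand, the first being ACGTG as above. The sugar-response motif TATCCA reads as TGGATA when it lies on the other strand. The I-box core of light-regulated genes, GATAAG, then reads as CTTATC. The motifs TATCCA and GATAAG can share bases, as in the run TGGATAAG of ACHT5.
RAV1, chr1:4541918-4542167, plus strand: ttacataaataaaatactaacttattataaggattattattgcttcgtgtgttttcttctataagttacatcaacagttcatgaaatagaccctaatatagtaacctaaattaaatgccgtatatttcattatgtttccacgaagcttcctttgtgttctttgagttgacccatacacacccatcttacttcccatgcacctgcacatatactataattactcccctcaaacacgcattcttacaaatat
BT5, chr4:17672354-17672603, minus strand: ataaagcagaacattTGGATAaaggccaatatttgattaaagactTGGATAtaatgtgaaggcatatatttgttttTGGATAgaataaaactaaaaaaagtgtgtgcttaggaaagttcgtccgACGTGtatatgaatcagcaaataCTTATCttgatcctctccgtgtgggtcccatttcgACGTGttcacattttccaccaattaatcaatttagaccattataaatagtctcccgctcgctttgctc
MIOX4, chr4:13297445-13297694, plus strand: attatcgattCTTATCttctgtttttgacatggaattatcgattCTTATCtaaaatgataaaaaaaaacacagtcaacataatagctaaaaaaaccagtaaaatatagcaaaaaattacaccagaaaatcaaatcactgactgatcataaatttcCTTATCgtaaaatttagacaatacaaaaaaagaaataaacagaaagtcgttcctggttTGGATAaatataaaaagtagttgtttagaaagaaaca
BBX14, chr1:25710990-25711239, minus strand: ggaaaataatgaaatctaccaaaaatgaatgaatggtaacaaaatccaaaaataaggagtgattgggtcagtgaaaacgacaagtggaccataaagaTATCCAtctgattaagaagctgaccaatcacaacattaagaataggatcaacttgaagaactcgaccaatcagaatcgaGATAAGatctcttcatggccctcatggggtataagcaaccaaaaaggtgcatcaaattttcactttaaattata
ACHT5, chr5:24707195-24707444, plus strand: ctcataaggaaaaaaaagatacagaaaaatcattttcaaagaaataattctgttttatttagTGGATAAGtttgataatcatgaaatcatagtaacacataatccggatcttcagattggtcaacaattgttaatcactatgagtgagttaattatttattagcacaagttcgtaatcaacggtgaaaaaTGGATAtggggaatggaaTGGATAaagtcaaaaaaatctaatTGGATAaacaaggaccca

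TATCCA was found in 7 of the 15 windows (46.7%) and in 14.3% of the 19888 promoters of tested genes, and GATAAG in 6 (40.0%) and in 12.4% of them. ACGTG was found in 2 of the 15, where 24.2% of the promoters of tested genes hold it, CACGTG, the G-box, in 1 of the 15 (6.67%) against 7.63% of those promoters, and AAAATATCT, the evening element of clock-regulated genes, in 2 (13.3%) against 2.55%. The motifs were chosen after the genes were known, so no test was made, and a match describes letters in the window only.

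The 6 libraries at 4 h of ABA took no part in selecting these genes, and the genotypes were compared in them alone as a separate measure. Over 19801 genes, bro1-1 was lower than WT at an unadjusted p under 0.05 in 851 (4.30%) and higher in 1156 (5.84%), and edgeR called 4 (0.0202%) at the adjusted threshold. All 15 genes lay lower in bro1-1 at 4 h, with a median log2 difference of -0.67 against -0.01 over all genes. An unadjusted p under 0.05 was reached by 10 of the 15, none passed after adjustment over all genes, and in 8 the groups did not overlap. The share of all genes without overlap at 4 h was not counted, so the 8 cannot be judged against it. BBX14 lay at 149, 141 and 87.7 CPM in WT and at 85.6, 38.0 and 63.8 CPM in bro1-1, a difference of -1.01 ± 0.31 (edgeR adjusted p = 0.358). AT1G80440 was at 170, 106 and 135 CPM in WT and 71.6, 40.5 and 73.3 CPM in bro1-1, a difference of -1.15 ± 0.26 (edgeR adjusted p = 0.278), and every bro1-1 library was below every WT library for both genes. RAV1, in contrast, lay at 49.2, 52.6 and 44.6 CPM in WT and 55.1, 30.5 and 40.0 CPM in bro1-1, overlapping groups with a difference of -0.22 ± 0.21, and ERF2 differed by -0.14 ± 0.49. AtBro1 was at 462, 285 and 533 CPM in WT and 135, 181 and 133 CPM in bro1-1, a difference of -1.51 ± 0.26 (edgeR adjusted p = 0.199). When all 18 libraries were fitted together, edgeR called 0 of 20637 genes for the difference between the 4 h and the 2 h genotype effects, with 578 at an unadjusted p under 0.05. That difference uses the 2 h values which chose the leading genes, so none is given for them. The interaction at 4 h against the same mock libraries was -0.39 for RAV1, -0.995 for AT1G23390, -1.47 for ESE3, -1.72 for BT5 and -3.89 for MIOX4, set here beside the 2 h values, with which it shares the mock libraries. Again 0 of 20637 genes were called at 4 h, with 1404 at an unadjusted p under 0.05.

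In the positive direction, the 10 genes of smallest edgeR p included the 2 called higher by DESeq2. They too were selected on this contrast, and the shares of all genes without overlap were not counted. In 9 of the 10, bro1-1 lay above WT after ABA without overlap, with UPL1 the exception, and in 6 bro1-1 lay below WT at mock. AT2G46640, annotated as a deacetylase-like protein, was at 6.58, 6.45 and 7.29 CPM in WT mock and 10.5, 12 and 12.3 CPM in WT ABA. In bro1-1 it was at 5.51, 3.03 and 3.85 CPM at mock and 16.2, 16.3 and 18.7 CPM after ABA. Both genotypes were higher after ABA, bro1-1 from a lower start and to a higher level, and the interaction was 1.27 ± 0.28 (DESeq2 adjusted p = 0.0212, edgeR adjusted p = 0.909). MYR2, a Myb-related factor, was at 5.80, 5.03 and 7.86 CPM in WT mock, 5.50, 5.62 and 3.42 in WT ABA, 3.83, 4.98 and 3.68 in bro1-1 mock and 9.07, 8.92 and 9.99 in bro1-1 ABA. The WT groups overlapped, the bro1-1 groups did not, and the interaction was 1.52 ± 0.34.

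UPL1, a HECT-type ubiquitin ligase, was at 110, 107 and 114 CPM in WT mock, 112, 97.3 and 98.4 in WT ABA, 81.6, 64.5 and 71.0 in bro1-1 mock and 133, 104 and 122 in bro1-1 ABA. Its mock groups were separate, with bro1-1 lower, and the ABA groups overlapped, the genotype difference was -0.61 at mock and 0.22 after ABA, and the interaction was 0.84 ± 0.19. RHA2A, a RING-type ubiquitin ligase known as a positive regulator of ABA signalling, was at 10.4, 8.02 and 7.92 CPM in WT mock and 6.16, 5.49 and 4.83 CPM in WT ABA. Levels in bro1-1 were 7.07, 8.43 and 9.85 CPM at mock and 11.5, 11.5 and 10.05 CPM after ABA. WT moved down and bro1-1 up without overlap from the same range at mock, and the interaction was 1.06 ± 0.26 (edgeR adjusted p = 0.909). IRX12, a laccase of lignin formation, was at 1.40 ± 0.33 and GSL04, a glucan synthase, at 1.21 ± 0.29. FAF3 had an interaction of 1.44 ± 0.34, AT1G09890 of 2.25 ± 0.57 and AT1G29025 of 3.18 ± 0.82. AT3G13760 had 72, 60 and 43 counts in WT mock, 0 in each WT ABA library, 41, 20 and 45 in bro1-1 mock and 8, 1 and 6 in bro1-1 ABA, and no fold is given because a group is at 0, which allows up to 3 counts per library (0.155 to 0.201 CPM). At 4 h, 7 of the 9 genes tested lay higher in bro1-1, 1 of them (IRX12, 1.32 ± 0.40) with an unadjusted p under 0.05 and none after adjustment, while AT2G46640 was at -0.14 ± 0.34 and UPL1 at -0.25 ± 0.13.

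Genes that ABA moved in opposite directions in the genotypes were counted over all libraries. WT lay higher and bro1-1 lower after ABA, each without overlap, for 15 genes (0.0738%), and the reverse held for 16 (0.0787%). The first set held AT1G23390, RAV1, HSFA8 and AT1G32360, described above, and CXXS1, a thioredoxin-like protein, at -0.98 ± 0.22, a value chosen after it was seen. The second held RHA2A and, likewise picked after its value was seen, RGL1, a DELLA repressor of gibberellin responses, at 6.21, 4.97, 4.89 and 7.02 CPM as means of WT mock, WT ABA, bro1-1 mock and bro1-1 ABA and an interaction of 0.84 ± 0.23. These genes were chosen because their groups moved in opposite directions without overlap. That choice favours a large interaction, so no test of the interaction was counted over them.

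The DESeq2 calls depended on the libraries. Leaving out each of the 12 libraries in turn gave 6 to 80 calls. There were 6 without WT mock 1 or WT mock 3, 7 without WT ABA 2, bro1-1 mock 1 or bro1-1 ABA 3, 8 without bro1-1 ABA 1, 9 without WT ABA 3 or bro1-1 mock 2, and 15 without bro1-1 ABA 2. Counts were higher without bro1-1 mock 3 (35), WT ABA 1 (40) and WT mock 2 (80). ESE3, RAV1, AT1G23390 and BT5 were called in all 12 of these fits, and the sign of all 15 genes was the same in each. The genes were selected on the full set of libraries, which favours a kept sign. Without WT mock 2 and bro1-1 mock 3 together, 99 genes were called, 67 lower and 32 higher, and 14 of the original 15 were among them. edgeR called 0 in each case.

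For the ABA pathway genes no interaction was called, and the precision differed between members. The whole 95% interval lay between -1 and 1 for 2 of the 9 receptors tested, 5 of 8 clade A PP2C phosphatases, 6 of 10 SnRK2 kinases, 4 of 10 ABF, ABI5 and AFP genes, 3 of 12 genes of synthesis, breakdown and transport and 5 of 23 output genes. For the others a 2-fold difference of the responses was not excluded. Of the 14 PYR/PYL receptors, 9 were tested, and 6 were called lower after ABA in each genotype. Over all genes, 7.46% were called lower in WT and 7.84% in bro1-1. The median response of the 9 receptors was -1.83 in WT and -2.34 in bro1-1. The interaction ranged from -0.79 ± 0.41 for PYL8 to 1.19 ± 0.60 for PYL6, and 1 receptor had an unadjusted p under 0.05. That gene, PYL4, named because of its value, was at 148, 135 and 139 CPM in WT mock, 2.39, 2.17 and 2.28 in WT ABA, 108, 124 and 116 in bro1-1 mock and 2.33, 3.09 and 6.05 in bro1-1 ABA. It dropped far below mock in all 6 ABA libraries, its ABA groups overlapped, and its interaction was 1.03 ± 0.37 (edgeR adjusted p = 0.909).

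All 8 clade A PP2C phosphatases tested, of 9, were called higher after ABA in both genotypes. Over all genes, 11.6% were called higher in WT and 13.6% in bro1-1. None of the 8 had an unadjusted p under 0.05 for the interaction. ABI1 lay at 45.8 to 103 CPM in WT mock, 815 to 1031 CPM in WT ABA, 52.8 to 88.2 CPM in bro1-1 mock and 847 to 933 CPM in bro1-1 ABA, and its interaction was -0.04 ± 0.43. ABI2 was at -0.24 ± 0.34 and HAI1, the highest of the list, at 0.67 ± 0.52. HAI3 had 0 counts in each WT mock library and 0, 2 and 5 in bro1-1 mock, against 347, 476 and 436 in WT ABA and 978, 288 and 298 in bro1-1 ABA, so no fold is given. Without HAI3 the median interaction of the list was 0.08.

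Of the 10 SnRK2 kinases, none had an unadjusted p under 0.05, and the median interaction was 0.09. OST1, the kinase of stomatal closure, lay at 21.7 to 29.3 CPM in WT mock, 36.9 to 43.6 in WT ABA, 22.5 to 22.7 in bro1-1 mock and 36.0 to 54.8 in bro1-1 ABA, with an interaction of 0.23 ± 0.24. The extremes were SnRK2.3 at -0.64 ± 0.40 and SnRK2.7 at 0.66 ± 0.48. The 10 ABF and ABI5 factors and AFP repressors, which act on those factors, had a median of 0.10, none with an unadjusted p under 0.05, and ranged from AFP3 at -0.46 ± 0.25 to ABF2 at 0.42 ± 0.20. ABI5 was at -0.13 ± 0.59. For ABF2 the 95% interval of -0.01 to 0.86 excludes a 2-fold difference of the responses, whereas for ABI5 it does not.

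Genes of ABA synthesis, breakdown and transport gave 12 tested of 16, a median interaction of 0.20 and none with an unadjusted p under 0.05. NCED3, the rate-limiting dioxygenase of stress-induced ABA synthesis, lay at 0.629 to 3.44 CPM in WT mock, 18.9 to 27.1 in WT ABA, 1.3 to 3.48 in bro1-1 mock and 24.4 to 32.17 in bro1-1 ABA, with an interaction of 0.14 ± 0.64. CYP707A1, an ABA 8'-hydroxylase that breaks the hormone down, was at 0.47 ± 0.53, and the extremes were CYP707A2, of the same family, at 0.49 ± 0.36 and ABCG40, an ABA importer, at -0.91 ± 0.95.

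Of the 23 ABA output genes, 23 were called higher after ABA in WT and 22 in bro1-1, against 11.6% and 13.6% of all genes. The median interaction of the list was 0.02. That median rested on WT mock 1, without which it was -0.54, with 21 genes below 0. Over the other libraries left out singly it ranged from -0.15, without bro1-1 ABA 1, to 0.13, without WT mock 2. RD29A, a classic reporter of ABA and cold, was at 46.8, 3.46 and 15 CPM in WT mock and 6461, 6303 and 7525 CPM in WT ABA. In bro1-1 it was at 33.5, 21.3 and 7.64 CPM at mock and 7608, 8004 and 5961 CPM after ABA. The ABA groups overlapped, the mock libraries spread over more than the difference between genotypes, and the interaction was 0.15 ± 1.00. RAB18, a dehydrin, was at -0.17 ± 0.55, RD29B at -1.25 ± 1.07 and RD20, a caleosin and the highest of the list, at 0.77 ± 0.69. RD29B and EM1, an embryo LEA protein, had their highest mock level in bro1-1 mock 3, the library with 725 CPM of embryo and seed markers. RD29B lay at 0.290, 0.771 and 4.36 CPM in bro1-1 mock, and EM1 had 0, 0 and 27 counts there, 0 in each WT mock library, 30, 32 and 38 in WT ABA and 45, 39 and 28 in bro1-1 ABA. Without bro1-1 mock 3 the interaction of RD29B was 0.52. EM1, with an unadjusted p of 0.0395, was the one output gene past 0.05, and no fold is given because a group is at 0.

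**Figure D4:**
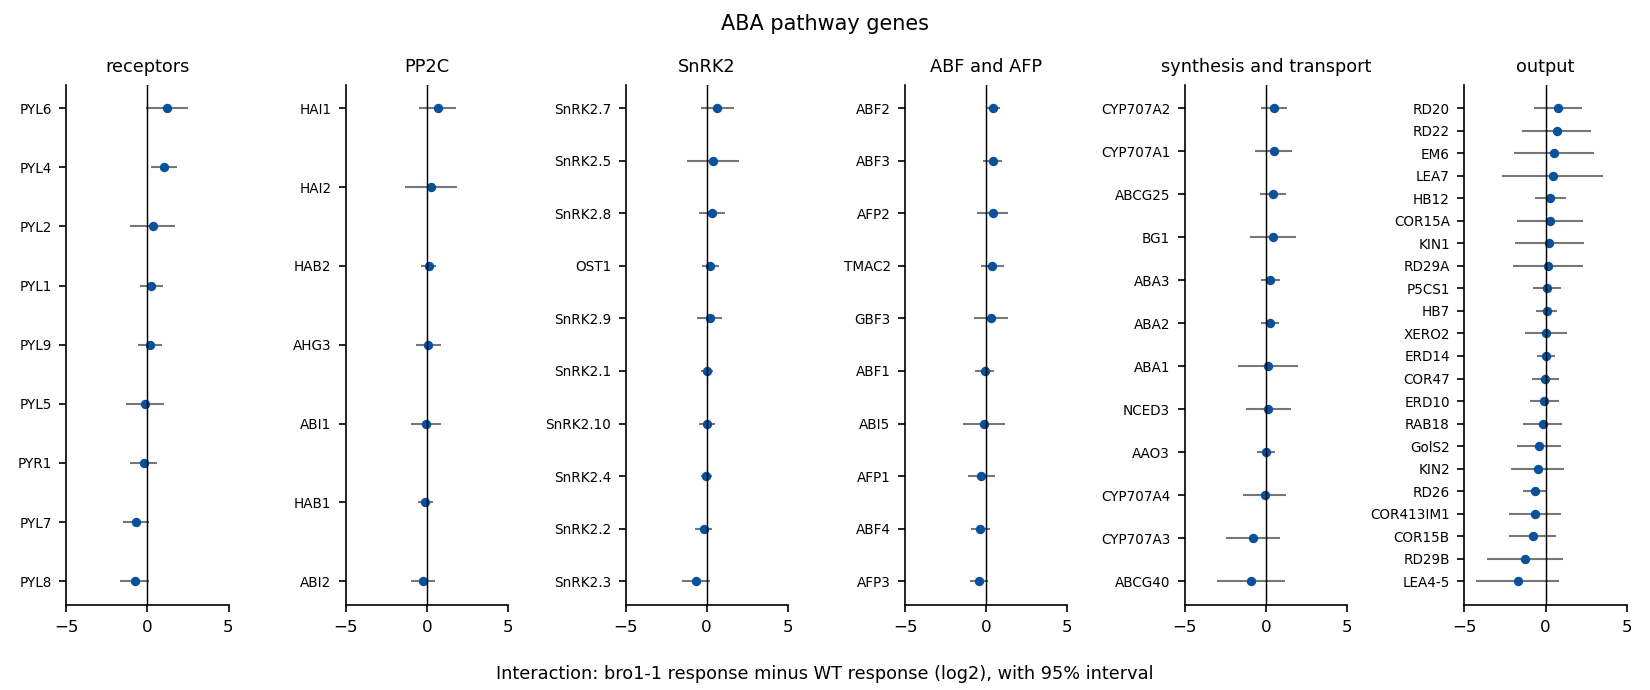
Interaction on the log2 scale with its 95% interval for ABA pathway genes, ordered by role from receptors to output genes, genes with a group at 0 left out. Points are edgeR estimates from 3 libraries per group. PYL4 is the one gene shown whose interval lies on 1 side of 0, and wide intervals, as for RD29A, go with mock libraries that differ.

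Other gene groups that seedlings use under stress were described by their counts, and their lists are given with the median over all genes, 0.02, for reference. The 15 rapid touch, wound and cold genes had a median interaction of -0.89, 13 below 0 and 3 with an unadjusted p under 0.05, all lower, where 47.8% of all genes lay below 0 and 2.23% had such a p in that direction. The summed level of the list was highest in bro1-1 mock 3, WT mock 2 and WT ABA 3. It was 425, 1231 and 544 CPM in WT mock, 699, 631 and 1219 in WT ABA, 595, 627 and 2142 in bro1-1 mock and 687, 517 and 355 in bro1-1 ABA. Without bro1-1 mock 3 the median was -0.39, with 11 below 0 and 2 at that p, and over the other libraries left out singly it ranged from -1.43, without bro1-1 mock 2, to -0.97. CBF1, a cold-response activator, was at 0.259, 0 and 0.746 CPM in WT mock, 5.80, 5.62 and 13.3 in WT ABA, 0.986, 1.60 and 0.453 in bro1-1 mock and 3.71, 4.50 and 5.02 in bro1-1 ABA, with an interaction of -2.50 ± 0.99. Named because of their values, ERF104 and SZF1 were the others. ERF104, an ethylene response factor, was at 17.1, 43.6 and 35.9 CPM in WT mock, 24.0, 31.4 and 23.0 in WT ABA, 27.9, 32.5 and 63.5 in bro1-1 mock and 13.4, 11.3 and 7.75 in bro1-1 ABA, where it lay below all other libraries, and its interaction was -1.63 ± 0.53. SZF1, a CCCH zinc finger protein, reached 103 CPM in bro1-1 mock 3 and lay at 16.8 to 51.1 CPM in the other 11 libraries, with an interaction of -1.86 ± 0.72. TCH4, a cell wall enzyme induced by touch, spread from 44.0 to 1091 CPM over the 12 libraries, the highest again in bro1-1 mock 3. CBF3 lay on the other side, at 1.76 ± 1.14.

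The 9 salicylate defence genes had a median of -0.32 and all lay below 0, where 47.8% of all genes did, with 1 at an unadjusted p under 0.05 in that direction, as for 2.23% of all genes. The place of the median rested on 1 library: without bro1-1 mock 1, which had the highest summed level of the list at 249 CPM against 107 to 171 CPM in the WT libraries, it was 0.01, with 5 above 0. The gene of small p was WRKY70, a factor between salicylate and jasmonate signalling and named because of its value, at 28.7, 29.1 and 18.3 CPM in WT mock, 23.5, 36.7 and 28.7 in WT ABA, 48.8, 37.4 and 45.0 in bro1-1 mock and 14.3, 15.8 and 25.4 in bro1-1 ABA. It overlapped between mock and ABA in WT and did not in bro1-1, where mock was the highest of the 4 groups, and the interaction was -1.46 ± 0.36 (edgeR adjusted p = 0.909). The list ran from WRKY38 at -2.38 ± 1.39, under 1.1 CPM in every library, to ICS1, the main enzyme of salicylate synthesis, at -0.04 ± 0.42.

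Of 25 jasmonate genes 24 were tested, 19 lay above 0, the median was 0.26 and none had an unadjusted p under 0.05. LOX2, a chloroplast lipoxygenase at the start of jasmonate synthesis, was at 108, 7.55 and 55.8 CPM in WT mock, 326, 617 and 187 in WT ABA, 86.6, 38.4 and 16.3 in bro1-1 mock and 921, 996 and 799 in bro1-1 ABA. After ABA every bro1-1 library was above every WT library, but the mock libraries spread over more than 10-fold, lowest in WT mock 2 and bro1-1 mock 3, and the interaction was 1.54 ± 1.09. It ranged from 0.69 without WT mock 1 to 2.33 without bro1-1 mock 1. PDF1.2, a defensin, was the lowest at -1.84 ± 1.09. Of 12 anthocyanin and flavonoid genes 11 were tested, 10 lay above 0 and the median was 0.81, or 0.77 over the 9 without a group at 0, again with none at an unadjusted p under 0.05, but without WT mock 1 the median of the 11 was -0.03, with 5 above 0. PAP1, the Myb activator of anthocyanin genes, had 466, 344 and 62 counts in WT ABA and 988, 469 and 529 in bro1-1 ABA, against 5, 0 and 0 in WT mock and 0 in each bro1-1 mock library.

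Among 13 circadian clock genes the median was -0.18, with 4 above 0 and 9 below, where 47.8% of all genes lay below 0. Without WT mock 2 and bro1-1 mock 3 together the median was -0.42. An unadjusted p under 0.05 was found for 2 of the 13, both positive, where 2.89% of all genes were. LHY, a morning-phased Myb repressor of the clock, was at 12.7, 6.61 and 4.71 CPM in WT mock, 15.3, 10.9 and 8.78 in WT ABA, 8.06, 8.37 and 1.36 in bro1-1 mock and 19.7, 32.0 and 34.2 in bro1-1 ABA. The bro1-1 ABA libraries were the highest of the 12, and the interaction was 1.74 ± 0.76. RVE8, a related Myb activator named because of its value, was at 6.06, 3.46 and 4.59 CPM in WT mock, 8.01, 8.37 and 5.63 in WT ABA, 3.59, 4.63 and 1.59 in bro1-1 mock and 11.3, 15 and 12.3 in bro1-1 ABA, with the same order and an interaction of 1.33 ± 0.48. ELF4, of the evening complex, was the lowest at -0.90 ± 0.60. The hour of harvest is not stated in the labels, and its part in these values was not tested.

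For the 19 nuclear photosynthesis genes, the median was -0.17, none had an unadjusted p under 0.05, and none was called in either genotype. The sign of this median depended on single libraries. It was -0.50 without WT mock 3 and 0.21, with 15 genes above 0, without WT mock 2. Single genes ranged from LHCB1.3 at -0.43 ± 0.49, whose reads can be shared with its near-identical copies, to LHCB2.1 at 0.55 ± 1.1. The 6 plastid sigma factors, which direct the plastid RNA polymerase, had a median of -0.30 and none with an unadjusted p under 0.05. SIGD, the lowest, was at 52.2, 56.6 and 51.9 CPM in WT mock, 52.5, 47.3 and 58.3 in WT ABA, 28.9, 37.5 and 13.8 in bro1-1 mock and 17.7, 20.5 and 15.4 in bro1-1 ABA. It was lower in bro1-1 in both conditions without overlap, and its interaction was -0.56 ± 0.39. SIG5, the stress-induced factor, was at 0.15 ± 0.67. Guard cell markers had a median of 0.40, and 2 of 5 embryo and seed markers were tested, neither with an unadjusted p under 0.05.

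**Figure D5:**
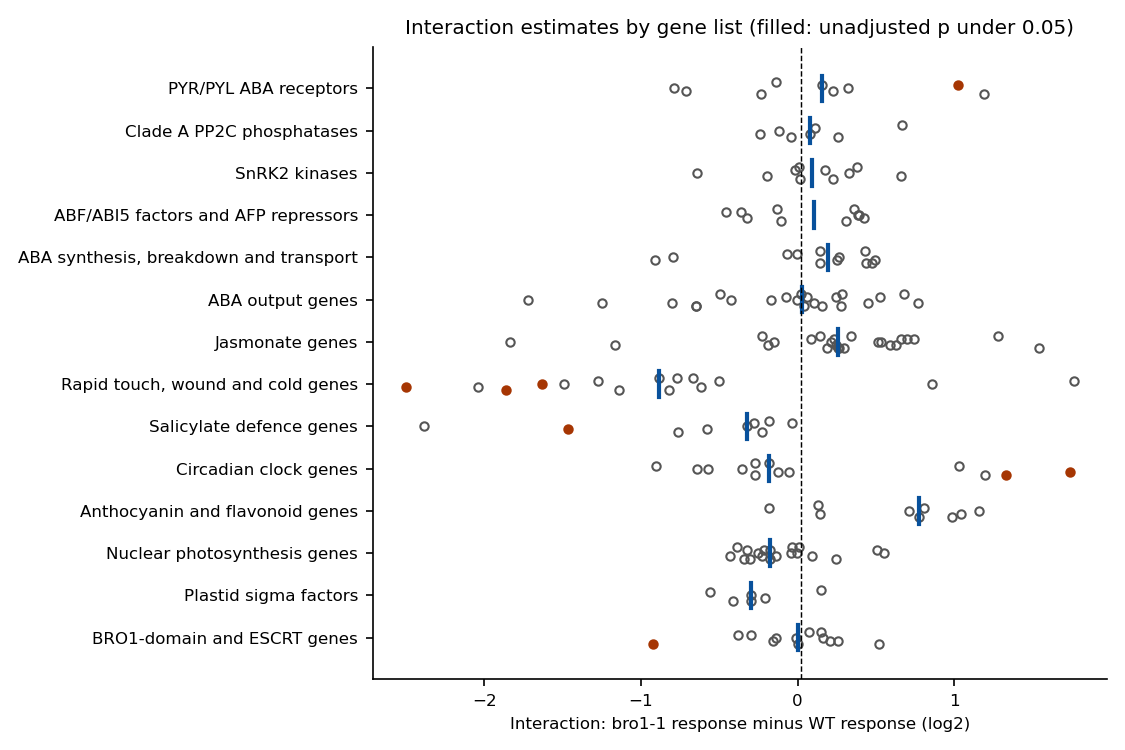
Interaction of each tested gene on the log2 scale, in 14 lists, with genes that have a group at 0 left out. Filled points have an unadjusted edgeR p under 0.05, the blue bar is the median of the list and the dashed line the median over all genes, 0.02. The touch, wound and cold list has its median at -0.89, or -0.39 without bro1-1 mock 3, and the 9 salicylate genes all lie below 0, with a median of 0.01 without bro1-1 mock 1.

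One set of genes had been picked by the study on these samples and is therefore no independent evidence. Of its 15 genes, tested by qRT-PCR or named from these libraries, 13 passed the count filter, with a median of -0.56, and RAV1, MIOX4 and RBCL had an unadjusted p under 0.05, all lower. RBCL, the chloroplast gene of the large Rubisco subunit, was at 13.9, 21.9 and 24.1 CPM in WT mock, 54.6, 33.3 and 31.2 in WT ABA, 12.6, 11.1 and 18.6 in bro1-1 mock and 9.76, 16.8 and 13 in bro1-1 ABA. WT was higher after ABA without overlap, bro1-1 was not, and the interaction was -1.09 ± 0.42 (edgeR adjusted p = 0.909). Others differed between genotypes already at mock. PI4KGamma3 lay at 15.3 to 27.9 CPM in the 6 WT libraries and 0.237 to 1.13 CPM in the 6 bro1-1 libraries, and MRD1 at 29.2 to 43.4 CPM and 0.126 to 1.42 CPM, with interactions of 1.13 ± 0.54 and -0.82 ± 0.65. HEI10, at -0.88 ± 0.58, overlaps MRD1 on the opposite strand, and since the strand setting of the counting is not stated, the reads of these genes cannot be told apart. GDA1 was at 1.67 ± 0.81, AT3G25250 at 0.88 ± 0.85, MAF5 at 0.23 ± 0.81, MBP1 at 0.01 ± 1.04, QQS at -0.01 ± 0.36 and the chloroplast gene NDHA at -1.74 ± 1.36. AT5G38910 was below the count filter, and AT5G12730 was not analysed here.

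A panel of 14 ABA and stress genes, which the study chose by role and measured by qRT-PCR in other seedlings, all passed the count filter and had a median of -0.11, with EM1 and DREB2B at an unadjusted p under 0.05. DREB2B, a drought-response activator, was at 2.59, 1.99 and 2.93 CPM in WT mock, 11, 13 and 10.7 in WT ABA, 2.96, 3.86 and 3.28 in bro1-1 mock and 9.38, 10.3 and 7.26 in bro1-1 ABA. It was higher after ABA in both genotypes, with bro1-1 above WT before and below it after, and the interaction was -0.79 ± 0.29. Besides the genes given above, SnRK2.2 was at -0.19 ± 0.24, ABA1 at 0.14 ± 0.85, ABA2, which makes abscisic aldehyde, at 0.25 ± 0.25 and AAO3, which oxidizes that aldehyde to ABA, at -0.01 ± 0.25. EM6, another embryo LEA protein, was at 0.53 ± 1.13, with only 2, 2 and 6 counts in WT mock and 0, 0 and 6 in bro1-1 mock. Without WT mock 3 its value was -0.22. Without bro1-1 mock 3 the bro1-1 mock group is at 0, so no fold is given. For AAO3 the 95% interval of -0.56 to 0.55 excludes a 2-fold difference of the responses, and for ABA1, which was low in WT mock 2 and bro1-1 mock 3, the interval of -1.72 to 2.00 does not.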

How the data were processed

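Per the labels, seedlings were treated and harvested with 3 biological replicates per condition, and RNA was extracted with a Qiagen kit. The authors checked reads with FastQC, trimmed them with BBDUK2, removed ribosomal reads with Bowtie2 2.3.5.1 and quantified genes with RSEM 1.2.30. They deposited, for every gene, the expected counts of RSEM without any scaling across libraries and the TPM values, scaled by RSEM within a library. The build, annotation and strand setting are not given in the sources used here. Expected counts, of which 1.77% to 2.06% per library are not whole, were rounded.

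The 12 libraries were fitted in edgeR 4.0.16 (R 4.3.3) with filterByExpr, TMM factors (0.884 to 1.15), 4 group means and the quasi-likelihood test, two-sided, with Benjamini-Hochberg adjustment over all genes tested. Calls needed an adjusted p below 0.05 with a log2 value above 1 or below -1, the thresholds of the study's methods. The study used DESeq2, which served here as an alternative (1.42.0, 803 adjusted p-values NA). CPM use these TMM factors. Standard errors are the absolute log2 value divided by the square root of F, and intervals are 95%. Intervals and floors (3 counts) for a 0 cover counting error only. P-values measure the spread between these 3 libraries per group. Genotypes at 4 h were compared in the same way in 6 libraries.

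The genes named are AtBro1 and its paralog, the 10 genes of smallest edgeR p in each direction at a mean of at least 1 CPM, every gene called by DESeq2, the extremes and best-known members of each list, the genes the study chose, and the neighbour of AtBro1 with the smallest p. The genes and lists were chosen with earlier results of these data known. Positions, products and promoters come from TAIR10.1, where 32548 of 32833 genes were matched, and of 20055 genes with 1 transcript 99.2% have the same length in the files. The remaining 133 chloroplast and 152 mitochondrial genes have no position here. Alternatives were DESeq2, relative log expression factors, no filter, a mean of at least 5 CPM, all 18 libraries in 1 fit, nuclear genes alone, a replicate block, no fold threshold, p thresholds of 0.01 and 0.001, and leaving out each library. The planned legacy setting of edgeR is the default of this version, so legacy=FALSE was added, as were leaving out WT mock 2 and bro1-1 mock 3 together, DESeq2 without single libraries, and the comparisons at 4 h, all chosen after seeing the data. Scripts were tested on simulated data.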

Additional observations from a re-analysis of the deposited data

Results flagged for a closer look

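For 5 of the named genes, every WT library moved one way after ABA and every bro1-1 library the other. The interaction was -2.04 for AT1G23390, -1.75 for RAV1, -1.08 for HSFA8 and -0.77 for AT1G32360, with WT up and bro1-1 down, and 1.06 for RHA2A, with WT down and bro1-1 up. The edgeR test of the difference gave adjusted p-values of 0.338 for AT1G23390 and RAV1 and 0.909 for the others, so none passed over all genes. The genes were picked because their groups moved in opposite directions without overlap, so leaving out a single library cannot test the direction.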

How the results depend on the processing

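edgeR called 0 interactions under every alternative run, with smallest adjusted p-values of 0.205 to 0.958, whereas DESeq2 called 15 on the same genes and counts. The cause of the difference between the tools was not tested. The DESeq2 count ranged from 6 to 80 when single libraries were left out and was 99 without WT mock 2 and bro1-1 mock 3 together. The 1041 genes at an unadjusted p under 0.05 became 182 at 0.01 and 17 at 0.001, ranged from 697 to 1727 when single libraries were left out, with 1727 without WT mock 2, and were 1835 without that library and bro1-1 mock 3 together. The median interaction of raised genes ranged from -0.03 to 0.31 and that of lowered genes from -0.16 to 0.15 over the libraries left out, and other settings moved them by less than the spread between libraries. Of the 15 leading lower genes, 10 lay below WT at 4 h at an unadjusted p under 0.05 in the 6 libraries, and 1 of the higher genes lay above. In a fit of all 18 libraries these counts were 13 and 5. That fit takes its spread also from the libraries that chose the genes, so its counts are no separate measure. The share over all genes in it was not counted. The 76 named genes gave 1580 values over the settings. Of these, 15, all from DESeq2, passed the thresholds. Another 6, in genes that had no small p, changed sign with a shift of more than 1 SE from the main value. RD29A at -1.08 without WT mock 1 was among them, and none of the others changed sign with a shift of that size. Leaving single libraries out of the list medians was an alternative chosen after seeing the data. The median of the plastid sigma factors moved from -0.30 to between -0.53 and -0.09 and that of the clock genes from -0.18 to between -0.25 and -0.04. Some medians changed sign. That of the nuclear photosynthesis genes moved from -0.17 to between -0.50 and 0.21, and that of the ABA output genes from 0.02 to between -0.54 and 0.13. Without WT mock 2 and bro1-1 mock 3 together, the clock median was -0.42 and the output median 0.20, both outside these ranges. The sigma factor median of -0.28 and the photosynthesis median of -0.13 then lay inside theirs. Deviations of same-numbered libraries correlated at -0.28 to 0.48, with 6 of 18 correlations over 0.1, and those of differently numbered libraries at -0.46 to 0.52. These values do not decide whether the replicate numbers pair libraries. With a replicate block edgeR called 0 genes, 976 at an unadjusted p under 0.05, with medians of 0.18 and 0.01 for raised and lowered genes.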
